A study of Bos indicus with 12 samples.

Results

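Endometrium of untreated (CON) cows that were later diagnosed pregnant was compared with that of CON cows that were not, on D 6 after timed artificial insemination (TAI). The 6 CON cows are among 12 cows whose endometrium was sequenced, and they were taken by the treatment and pregnancy labels of each sample. The pregnant cows were E0040, E0406 and E0819, and the non-pregnant cows were 1814, B1042 and X228. All 12 were suckled anestrous Nelore (Bos indicus) cows, each with a library of its own. Every cow had carried an intravaginal progesterone (P4) insert, with estradiol benzoate at its insertion, cloprostenol at its removal, and buserelin at TAI with semen of a single Angus sire. CON cows received nothing else, whereas the other 6 cows, 3 pregnant and 3 non-pregnant, received 1 mg of estradiol cypionate (ECP), a long-acting estradiol ester, at insert removal. CON cows were chosen among those that did not display estrus and ECP cows among those that did, with similar P4 in both. The fragment came from the body of the uterus of cows with a corpus luteum on D 6.

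The endometrium is the inner lining of the uterus, made of a surface and glandular epithelium, a fibroblast stroma, vessels and leukocytes. After ovulation, P4 from the corpus luteum turns it from proliferation towards secretion, and the glands release the nutrients that a free-living embryo takes up. On D 6 the bovine embryo has only recently entered the uterus from the oviduct, long before it elongates and signals its presence. An outcome assigned weeks later therefore groups cows by what followed, and the outcome also depends on fertilization, on the embryo and on later events.

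No gene was shown to differ between the endometrium of pregnant and non-pregnant CON cows by the main test. Of 15145 genes with a mean normalized count above 5, edgeR's quasi-likelihood test called 0 (0.00%) at an adjusted p (Benjamini-Hochberg) no higher than 0.10, and the lowest adjusted p was 0.476. An unadjusted p under 0.05 was found for 577 genes (3.81%), of which 326 had a higher and 251 a lower fitted level in pregnant cows, where 757 would be expected with no difference. limma voom also called 0, with 508 genes at an unadjusted p under 0.05. DESeq2 called 37 genes (0.244%), 21 higher and 16 lower in pregnant cows, with 654 genes at an unadjusted p under 0.05. That count depended on single cows, since it was 16 without E0040, 85 without 1814 and 229 without E0819. A normalized count is a read count divided by the DESeq2 size factor of its library, and each fold change was taken from edgeR as a log2 value, pregnant over non-pregnant.

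Most genes had nearly the same level in both groups. The median absolute log2 fold change was 0.15, and 86.4% of the genes lay within 0.5 on either side of 0. A fold change beyond 1 on the log2 scale was found for 644 genes, 278 higher and 366 lower, and 475 of these (73.8%) had a mean normalized count under 50. Only 18 of the 644 had a mean of at least 1000. The standard error (SE) of the fold change followed the level, with a median of 0.15 for the 2861 genes with a mean of at least 1000 and 0.59 for the 2739 genes with a mean under 50. In 1183 genes (7.81%) the groups did not overlap, meaning that every cow of one outcome lay on the same side of every cow of the other. The pregnant cows were above in 592 genes (3.91%) and below in 591 (3.90%). With no difference, groups of 3 against 3 cows are apart in a gene with a probability of 0.1, which is above the share of 7.81%. Groups without overlap are therefore not by themselves a sign of a difference.

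**Figure D1:**
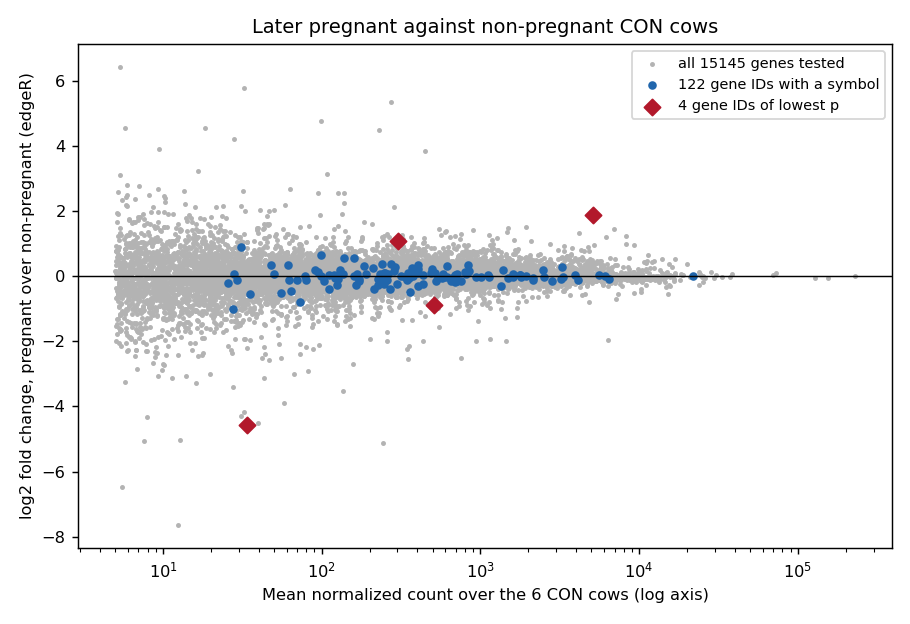
Each point is a gene, with its mean normalized count over the 6 CON cows on a log axis and its log2 fold change, pregnant over non-pregnant, on the vertical axis. The 15145 genes tested narrow around 0 as the level rises, the 122 gene IDs with a symbol lie between -0.997 and 0.90, and the 4 gene IDs of lowest p lie at 1.89, 1.08, -0.89 and -4.58.

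The 2 gene IDs of lowest p in each direction have no symbol in the sources used here, so no role can be given for them. ENSBTAG00000038617 stood at 425, 386 and 419 normalized counts in the pregnant cows E0040, E0406 and E0819, and at 229, 180 and 170 in the non-pregnant cows 1814, B1042 and X228. The pregnant cows were close together and all lay above the non-pregnant cows, with a log2 fold change of 1.08 (SE 0.16). ENSBTAG00000023600, an abundant transcript, stood at 12121, 6802 and 5186 normalized counts in the pregnant cows and at 2348, 2084 and 2030 in the non-pregnant cows. The lowest pregnant cow was thus far above the highest non-pregnant cow, the mean was 3.73-fold higher, and the log2 fold change was 1.89 (SE 0.30).

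ENSBTAG00000031265 was nearly without reads in the pregnant cows, with raw counts of 3, 4 and 1, against 47, 85 and 59 in the non-pregnant cows. Normalized, these were 3.11, 3.71 and 0.974 against 48.4, 80.6 and 64.8. The summed counts were 25.0 times higher in the non-pregnant cows after scaling, with an exact 95% interval of 12.4 to 58.6 that covers counting error only. The fitted log2 fold change was -4.58 (SE 0.54) and depends on the prior count added to such low values. ENSBTAG00000015044 stood at 414, 299 and 366 normalized counts in the pregnant cows and at 570, 714 and 699 in the non-pregnant cows. All pregnant cows lay below all non-pregnant cows, with a log2 fold change of -0.89 (SE 0.17).

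None of these 4 passed edgeR's test, with an adjusted p of 0.476 for ENSBTAG00000031265 and 0.999 for each of ENSBTAG00000038617, ENSBTAG00000023600 and ENSBTAG00000015044. DESeq2 called all 4, with adjusted p-values of 0.000426 for ENSBTAG00000038617, 6.73e-07 for ENSBTAG00000023600, 2.92e-07 for ENSBTAG00000031265 and 0.0172 for ENSBTAG00000015044. Over the whole list of 37 DESeq2 calls, the mean normalized count ran from 18.4 to 6182 with a median of 240.8. The calls with a higher level in pregnant cows had log2 fold changes from 0.77 to 5.78, the highest being that of ENSBTAG00000010151, which was high in E0040 and E0406 but not in E0819, and those with a lower level from -0.89 to -4.58. The groups did not overlap in 32 of the 37, and 0 of the 37 have a symbol here, so their functions cannot be described.

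**Figure D2:**
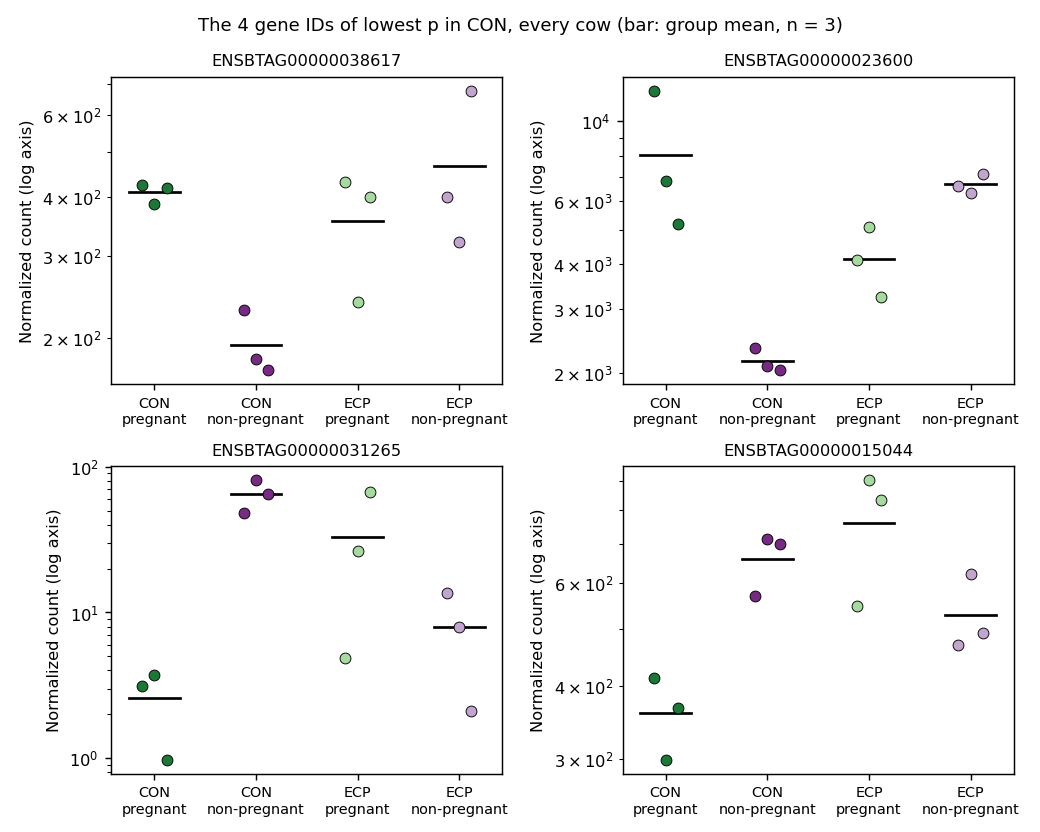
Normalized counts on log axes of the 4 gene IDs of lowest p, with a point for each of the 12 cows and a bar at the mean of each group (n = 3). The CON groups are apart in each panel, as for ENSBTAG00000023600 with 5186 to 12121 in pregnant and 2030 to 2348 in non-pregnant cows, whereas in the ECP cows the means lie in the opposite order.

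Without the pregnant cow E0819, edgeR called 2 genes, named here after their values were seen. In both, E0819 stood with the non-pregnant cows and not with the other pregnant cows. Neither was called by edgeR with E0819 in the fit, so its place in these genes follows in part from their choice. ENSBTAG00000010151 stood at 101 and 89.1 normalized counts in E0040 and E0406 and at 0.974 in E0819. The non-pregnant CON cows stood at 1.03, 0.948 and 1.10. In the pregnant ECP cows D160, E1010 and X156 it stood at 0.812, 0 and 0. Of the non-pregnant ECP cows, B0646 stood at 54.8 and C317 and E0952 at 0, so a high level was not limited to pregnant cows. ENSBTAG00000011824 stood at 552 and 613 in E0040 and E0406 and at 2293 in E0819. The non-pregnant CON cows stood at 2281, 2463 and 2023. It stood at 2237, 2881 and 1240 in the pregnant and at 1722, 1783 and 2264 in the non-pregnant ECP cows. With all 6 cows edgeR's unadjusted p was 0.00411 for ENSBTAG00000010151 and 0.0901 for ENSBTAG00000011824, and the groups overlapped in both. DESeq2 called ENSBTAG00000010151 with all 6 cows as well (adjusted p = 0.0150), as 1 of its 37, and did not call ENSBTAG00000011824. The count of genes with an unadjusted p under 0.05 was 1196 without E0819 and 335 without E0040.

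Among all 6 cows, 1814 and E0819, of different outcome, had the most alike profiles (Spearman correlation 0.981 across the genes tested), and B1042 and E0040 the least alike (0.965). The median correlation was 0.970 among pregnant cows, 0.974 among non-pregnant cows and 0.973 between the outcomes. E0040 stood apart, at 58.7 on the first principal component against -18.7 to 7.61 for the other 5 cows, and it had the highest value of the 6 cows in 21.4% of the genes and the lowest in 19.3%. The pregnant cows varied more among themselves, with a median SD of log2 CPM, which scales counts to the library size, of 0.263 against 0.224, and the SD was larger among pregnant cows for 56.3% of the genes. Between-outcome variance made up 18.8% of the variance of log2 CPM. Any split of the 6 cows into groups of 3 holds part of the variance even without a difference, so such a share alone is no sign of a difference.

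The libraries also fall into a lower and a higher class by the share of their reads that mapped, and E0040, E0406 and B1042 are of the lower class while E0819, 1814 and X228 are of the higher. Variance between these classes made up 22.8%, and 1142 genes had an unadjusted p under 0.05 for class in a fit with both terms, again with 0 called. With class in the fit, pregnancy had 558 genes at an unadjusted p under 0.05 and 0 called by edgeR, and DESeq2 called 34 genes, of which 20 were among its 37. All 37 kept the sign of their fold change. Both genes called without E0819 had their odd values in E0040 and E0406, the pregnant cows of the lower class. B1042, also of that class, stood with the other cows, but the choice of these genes fixed this. The fit without E0819 calls genes in which E0040 and E0406 stand apart from all non-pregnant cows, so the place of B1042 cannot inform on class. The part of the mapping class in the pregnancy difference was not tested beyond these fits.

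**Figure D3:**
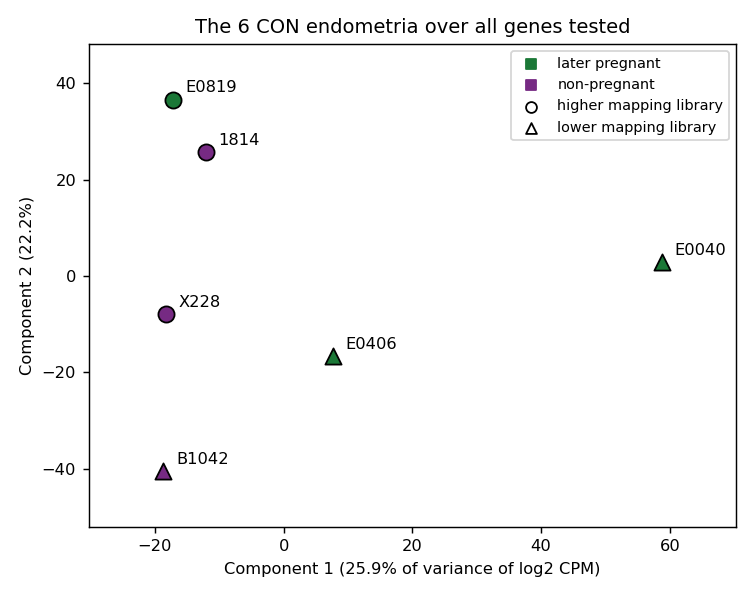
The 6 CON cows on the first and second principal components of log2 CPM (25.9% and 22.2% of the variance), coloured by pregnancy outcome and shaped by mapping class. E0040 lies alone at 58.7 on the first component, and the pregnant cow E0819 lies beside the non-pregnant cow 1814.

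A symbol could be given to 122 of the tested gene IDs (121 symbols), and these are described by role. They come from the study's list of genes that differ between ECP and CON cows, chosen on these same CON cows, so they are neither a random sample of genes nor an independent one. Of the 122, 60 had a higher and 62 a lower fitted level in pregnant cows, and the median log2 fold change was -0.0037 against -0.00059 over all genes tested. None was called by edgeR or DESeq2, 1 had an unadjusted p under 0.05 (background 3.81%), and in 10 the groups did not overlap (background 7.81%). The median fold change over all genes moved to -0.03 under upper quartile scaling, and with it the 122 became 52 higher, so the direction of fold changes near 0 rests on the scaling.

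CRYM, which encodes mu-crystallin, a binding protein of thyroid hormone in the cytosol, was the gene with a symbol of lowest p. It stood at 51.8, 52.9 and 57.5 normalized counts in the pregnant cows and at 121, 57.8 and 98.8 in the non-pregnant cows. The pregnant cows were close together just below the lowest non-pregnant cow, B1042, and the log2 fold change was -0.78 (SE 0.33, unadjusted p = 0.0474 by edgeR, not called). With mapping class in the fit it was -0.55 with an unadjusted p of 0.144.

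Leukocyte genes were the list with most members apart between the groups. The groups did not overlap in 3 of its 5 genes, all with the pregnant cows lower (background 3.90% of all genes), and the median log2 fold change of the list was -0.26. The list was singled out by this count. Over all 122 gene IDs with a symbol, the pregnant cows were apart and higher in 3 and apart and lower in 7. A higher fitted level was found for 1 of the 5 genes, and for 2 with mapping class in the fit or with DESeq2 size factors. CD244, a receptor of natural killer cells and cytotoxic T cells, stood at 34.2, 28.8 and 23.4 normalized counts in the pregnant cows and at 37.1, 53.1 and 36.2 in the non-pregnant cows. AMICA1, an adhesion molecule of migrating leukocytes, stood at 120, 165.2 and 164.7 in the pregnant cows and at 171.1, 170.7 and 199 in the non-pregnant cows. SAMSN1, an adaptor of lymphocyte signalling, stood at 98.5, 130 and 114 in the pregnant cows and at 134, 132 and 142 in the non-pregnant cows. In each of these the gap between the groups was narrow beside the spread within them, with unadjusted p-values of 0.161, 0.228 and 0.260, and none was called.

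The remaining leukocyte genes did not follow. ALOX5, the lipoxygenase that starts leukotriene synthesis, had a log2 fold change of -0.0024 (SE 0.22). CXCL14, a chemokine that epithelium can also make, stood at 405, 345 and 855 normalized counts in the pregnant cows and at 534, 202 and 755 in the non-pregnant cows, so the spread within either group exceeded any difference between them. None of the 5 leukocyte genes was called, so no difference in leukocytes was shown. In fragments of bulk tissue, the number of leukocytes and the RNA per leukocyte cannot be told apart either. The defining leukocyte markers have no symbol in the sources used here and were not examined.

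Chromatin regulators had a higher fitted level in pregnant cows in 6 of 7 genes (5 of 7 under upper quartile scaling and with mapping class in the fit), with a median log2 fold change of 0.06 and 0 called. EZH2, the Polycomb methyltransferase of histone H3, stood at 169, 227 and 221 normalized counts in the pregnant cows and at 173, 161 and 159 in the non-pregnant cows. E0040 lay within the non-pregnant cows and the other pregnant cows above them, and the log2 fold change was 0.31 (SE 0.19). TET3, an enzyme that oxidizes methylated cytosine, had the highest of the list at 0.35 (SE 0.35), the helicase SBNO1 the lowest at -0.06, and ASXL1, a partner of Polycomb complexes and the most abundant, 0.06. Of the 7 transcription factors and cofactors, 4 were higher. SUB1, a general coactivator of transcription, stood at 2802, 2601 and 2719 in the pregnant cows and at 3011, 3056 and 2816 in the non-pregnant cows. These groups did not overlap, at a log2 fold change of only -0.14 (SE 0.11). ZNF135, a zinc finger protein, had a log2 fold change of 0.20 and TAF2, a subunit of TFIID, -0.15.

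Among signalling genes, 8 of 13 gene IDs had a higher fitted level in pregnant cows, 0 were called, and the median log2 fold change was 0.04. PAQR8, which encodes a membrane progestin receptor, stood at 411, 265.5 and 257 normalized counts in the pregnant cows and at 265, 244 and 206 in the non-pregnant cows. E0040 was the high cow, and the log2 fold change of 0.38 (SE 0.22) became 0.13 without it. GRIA3, a subunit of AMPA glutamate receptors, was the highest of the list at 0.57 (SE 0.32), again with E0040 the highest cow at 219.7, and was at 0.31 without E0040 and 0.81 without E0819. CAMK1, a kinase activated by calcium and calmodulin, was the lowest at -0.23 (SE 0.15). ARHGEF12, an exchange factor for RhoA and the most abundant of the list, was at -0.17 (SE 0.17). PTCH1, the receptor of Hedgehog ligands, is counted under a pair of gene IDs, with log2 fold changes of 0.10 and 0.07.

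Genes of the epithelial surface and of transport differed little. S100G, the calcium-binding protein calbindin-D9k of uterine and gut epithelium, stood at 2808, 2081 and 2631 normalized counts in the pregnant cows and at 2675, 2908 and 2065 in the non-pregnant cows. The groups covered the same range, and the log2 fold change was -0.03 (SE 0.17). CEACAM1, an adhesion molecule of epithelia, ranged from 2444 to 2985 in the pregnant and from 1834 to 3003 in the non-pregnant cows. SLC38A1, a transporter of glutamine, had the highest fold change of the 6 genes at 0.36 (SE 0.25), and the cation channel TRPM3 the lowest at -0.40 (SE 0.33). TRPM3 was low in the non-pregnant cow B1042 at 156.5 and high in 1814 and X228 at 367 and 395, with the pregnant cows between them at 214 to 258.

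The 7 genes of the matrix and of peptidases had log2 fold changes between -0.15 for FAM20C, a kinase of secreted proteins, and 0.34 for ADAMTSL1, a secreted matrix protein. PEPD, the dipeptidase prolidase that serves collagen turnover and the most abundant of these, was at 0.02. ASPN, the stromal proteoglycan asporin, was also at 0.02 (SE 0.20), with 881, 507 and 697 normalized counts in the pregnant cows and 626, 722 and 690 in the non-pregnant cows. S100G, CEACAM1 and ASPN, which epithelium and stroma of the uterus can express, were read in each of the 6 libraries, whereas defining endometrial genes have no symbol here and were not examined.

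Genes of energy and protein production had mostly small fold changes. The 7 mitochondrial genes had log2 fold changes between -0.05 for ATP5F1, a subunit of ATP synthase and the most abundant, and 0.28 for MRPS31, a protein of the small mitochondrial ribosomal subunit. MRPS31 stood at 320, 322 and 313 normalized counts in the pregnant cows and at 214, 289 and 279.9 in the non-pregnant cows. The pregnant cows were nearly alike and all lay above the non-pregnant cows, and the difference was not called (SE 0.16). Of the glycolytic genes, GPI, the glucose phosphate isomerase, was at 0.28 (SE 0.15) and HK2, a hexokinase, at -0.46 (SE 0.49). The value of HK2 rested on single cows, at -0.018 without 1814, -0.13 without E0819 and -0.76 without B1042. The 6 ribosomal and translation genes lay between -0.12 for the elongation factor subunit EEF1D and 0.05 for EIF6, which keeps ribosomal subunits apart. RPS2, a ribosomal protein with many genomic copies, so that its counts are uncertain, was at 0.01 (SE 0.13).

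The remaining lists were small and held 0 called genes. The 4 splicing genes lay between -0.08 for GEMIN7, of the SMN complex, and 0.06 for RBM48, a splicing factor, with STRAP, which binds the SMN complex, at 0.03. Of the 7 genes of vesicle traffic, STON1, an endocytic adaptor, was the highest at 0.34 (SE 0.16) and SCAMP1, a membrane protein of secretory carriers, the lowest at -0.40 (SE 0.26). GABARAP, an autophagosome protein and the most abundant of these, was at 0.01. The 3 glycosylation genes lay between -0.11 for ST8SIA4, a polysialyltransferase, and 0.11 for MGAT5, which branches N-glycans.

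The 3 muscle and keratin genes had larger and mixed fold changes. MYL3, a myosin light chain of muscle, was the lowest of the 122 gene IDs at -0.997 (SE 0.53), with 25.9, 18.6 and 10.7 normalized counts in the pregnant cows and 38.1, 19.0 and 52.7 in the non-pregnant cows. SNTB1, a syntrophin of the dystrophin complex, was at 0.55 (SE 0.25), with 232, 179 and 155.9 in the pregnant cows and 162, 119 and 104 in the non-pregnant cows. KRT9, a keratin known in human from the skin of palms and soles, was at 0.65 (SE 0.38), with 108, 109 and 148 in the pregnant cows and 82.5, 108 and 39.5 in the non-pregnant cows, and it was at 0.34 without X228 and 0.99 without B1042. In each of the 3 genes the groups overlapped.

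**Figure D4:**
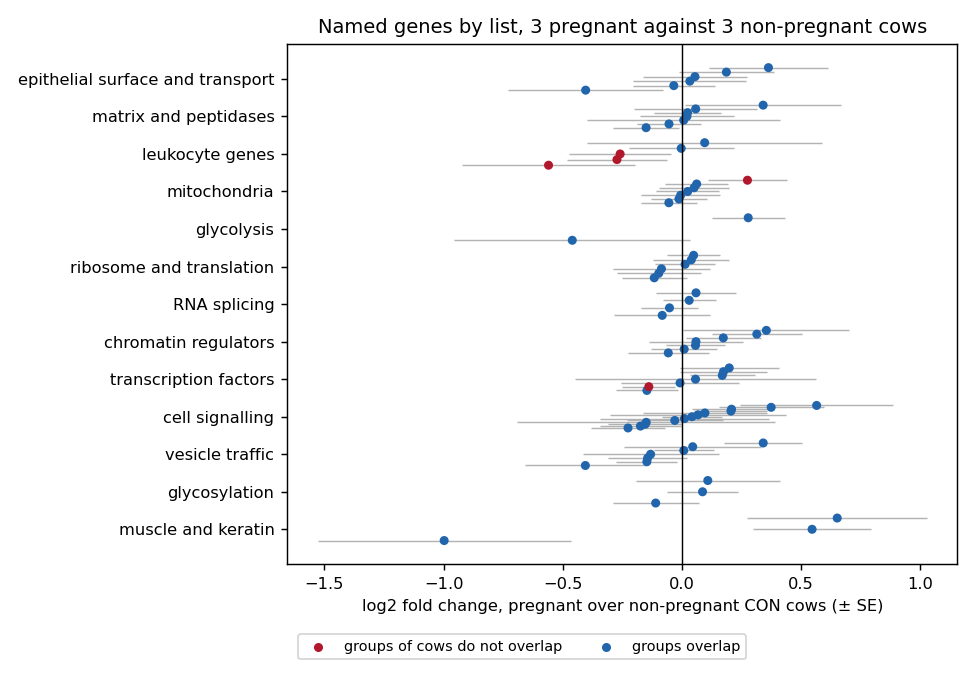
Log2 fold change of each named gene, pregnant over non-pregnant CON cows (point, with a bar of 1 standard error to either side), by list. Red points mark genes whose groups do not overlap, 3 of which are leukocyte genes with the pregnant cows lower, and MYL3 at -0.997 is the farthest from 0.

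Beside the list extremes, the genes with a symbol of lowest p were spread over many roles. Higher in pregnant cows were NUDT17, a hydrolase of the Nudix family, at 0.24 (SE 0.14), and LOC618369 at 0.30 (SE 0.18). NUDT17 stood at 429, 382 and 404 normalized counts in the pregnant cows and at 302, 360.4 and 358 in the non-pregnant cows, without overlap. Lower were CCBL2, a kynurenine aminotransferase, at -0.30 (SE 0.16), ZCCHC12, a transcriptional coactivator, at -0.52 (SE 0.33), and LOC100335806 at -0.28 (SE 0.19). Unadjusted p-values of the 10 leading genes ran from 0.0599 to 0.145 among those higher and from 0.0474 to 0.248 among those lower in pregnant cows. ENSBTAG00000021466, the most abundant gene ID with 1.52% to 2.22% of the counts of a library, was at 0.0039 (SE 0.20).

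Circulating P4 at the biopsy was 3.85, 3.86 and 3.36 ng/mL in the pregnant cows and 3.57, 3.79 and 2.82 ng/mL in the non-pregnant cows. The means were 3.69 ± 0.286 and 3.39 ± 0.509 ng/mL (SD, n = 3 each), and the ranges overlapped. The difference of 0.297 ng/mL gave p = 0.5 in a two-sided exact permutation test, in which 3 against 3 cows cannot go below 0.1. It was 0.01 ng/mL without X228. The study had selected cows for similar P4 in the ECP and CON groups, and it names no such matching between outcomes.

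The pregnancy difference of CON cows was then set beside that of the ECP cows, which share no cow with it. In a fit over all 12 cows, the difference between the treatments in the effect of pregnancy was called for 0 of 15161 genes (0.00%) by edgeR, with a lowest adjusted p of 0.301 and 800 genes at an unadjusted p under 0.05, where 758 would be expected with no difference. limma voom called 0, and DESeq2 called 15 (0.0989%). Of the 14951 genes tested in both treatments, 46.0% had a fold change of the same sign, and the Spearman correlation of the fold changes across these genes, which are not independent, was -0.10. Of the 566 genes with an unadjusted p under 0.05 in CON, 196 (34.6%) had the same sign in ECP. An unadjusted p under 0.05 in both treatments was found for 9 of them with the same and 29 with the opposite sign. In the ECP cows alone, 736 of 15139 genes had an unadjusted p under 0.05 by edgeR. There edgeR and limma voom called 0 genes, with a lowest adjusted p of 0.988 by edgeR, and DESeq2 called 24. Some genes thus reach such a p in both treatments with no difference. Of the 37 DESeq2 calls of CON, 9 had the same sign in ECP. In CON the lower mapping class holds 2 pregnant cows and 1 non-pregnant cow, and in ECP 1 and 2. With class in both fits the share of genes of the same sign was 43.1%.

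**Figure D5:**
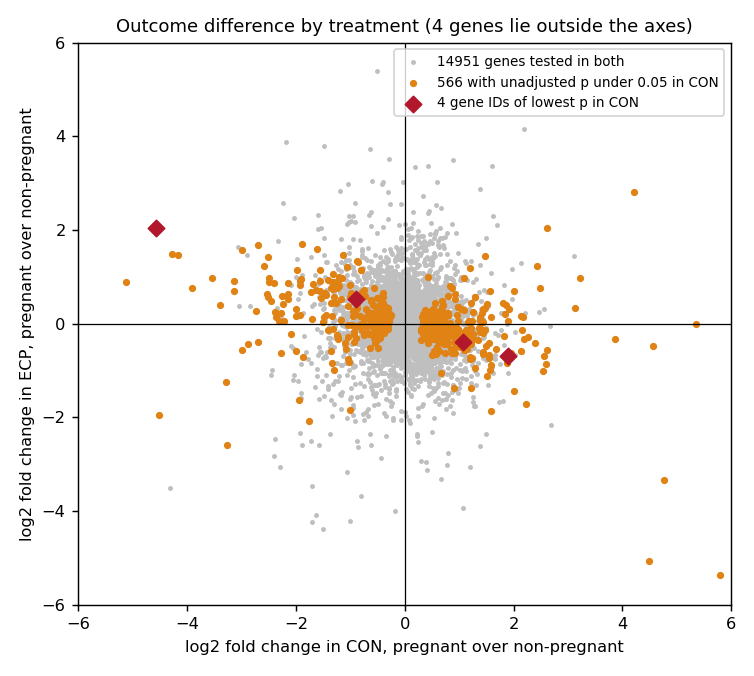
Log2 fold change, pregnant over non-pregnant, in CON cows (horizontal) and in ECP cows (vertical) for the 14951 genes tested in both, with 4 genes outside the axes. Of the 566 orange genes, with an unadjusted p under 0.05 in CON, 196 lie in the quadrants of the same sign, and the 4 gene IDs of lowest p in CON lie in the quadrants of opposite sign.

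All 4 gene IDs of lowest p in CON had a fold change of the opposite sign in ECP cows. They were chosen for their difference in CON, which is itself a part of the difference between the treatments. The sizes and p-values of the latter given below are thus not independent of that choice. ENSBTAG00000023600 stood at 4123, 5069 and 3237 normalized counts in the pregnant ECP cows D160, E1010 and X156 and at 6584, 6306 and 7120 in the non-pregnant ECP cows B0646, C317 and E0952. Here every pregnant cow was below every non-pregnant cow, with a log2 fold change of -0.68 (SE 0.17). The difference between the treatments was 2.58 (SE 0.37), with an adjusted p of 0.301 by edgeR and 1.93e-07 by DESeq2. It was called by edgeR without E0040 (adjusted p = 0.0636) and without E0819 (adjusted p = 0.0446).

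ENSBTAG00000015044 stood at 548, 900.5 and 834 normalized counts in the pregnant ECP cows and at 469.7, 623 and 494 in the non-pregnant ones. ENSBTAG00000038617 stood at 431, 238 and 399.8 in the pregnant ECP cows and at 401, 321 and 676 in the non-pregnant ones. ENSBTAG00000031265 stood at 4.87, 26.4 and 67.6 in the pregnant ECP cows and at 13.7, 7.90 and 2.11 in the non-pregnant ones. In these 3 gene IDs the ECP groups overlapped. The difference between the treatments was not called by edgeR in any of them, with adjusted p-values of 0.820 for ENSBTAG00000015044, 0.898 for ENSBTAG00000038617 and 0.820 for ENSBTAG00000031265. DESeq2 called it in ENSBTAG00000015044 (adjusted p = 0.0153) and ENSBTAG00000031265 (adjusted p = 0.000684), and not in ENSBTAG00000038617 (adjusted p = 0.176).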

How the data were processed

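RNA-seq libraries of 12 cows, 6 of them CON, were compared as raw read counts per Ensembl gene ID, which the authors deposited without normalization. Reads had been trimmed by the authors, aligned to the masked UMD 3.1 assembly (Bowtie2 2.1.0), sorted with SAMtools 0.1.18 and counted with HTSeq 0.5.4p2. The strand setting of the counting was not given in the sources used here, and overlapping genes on opposite strands are uncertain. The CON libraries held 10662044 to 12765968 counts, and the common biological coefficient of variation was 0.267. No pair of CON libraries agreed within sampling noise, the lowest chi-square per degree of freedom being 19.3.

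The main test was edgeR 4.0.16 (TMM, quasi-likelihood) in R 4.3.3 on the 6 CON cows, with Benjamini-Hochberg adjusted p at most 0.10, as in the study, and a mean normalized count above 5. It was tested on simulated data. Standard errors are the fold change over the square root of F. DESeq2 1.42.0, limma 3.58.1 (voom), other scalings and filters, progesterone and mapping class as terms, a 4-group fit and each cow left out were alternatives. Figures were drawn with matplotlib 3.10.9. The genes named are the 2 gene IDs of lowest p in each direction (none passed the threshold), the 10 genes with a symbol of lowest p in each direction, the extremes and the most abundant gene of each list, S100G, CEACAM1, ASPN and the most abundant gene ID. ENSBTAG00000010151, ENSBTAG00000011824, SAMSN1, ALOX5 and PTCH1 were named in addition, after seeing their values. The members and lists were chosen with earlier results of these data known. Symbols came from a supplementary table of the study, which gave 122 of its 135 IDs a symbol used here, and 1 gene is not reported here. No Ensembl IDs are in the reference table, so 0% of the members of 9 further tissue lists could be matched, under the 80% needed, and no coordinates or sequences are given. Mapping class was taken from the mapped read share that the study tabulates.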

Additional observations from a re-analysis of the deposited data

Results flagged for a closer look

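A pair of the genes named had their outcome groups apart in opposite directions in the treatments. In ENSBTAG00000023600 the pregnant cows were all above the non-pregnant cows in CON and all below them in ECP, and the difference between the treatments was 2.58 on the log2 scale (standard error 0.37, adjusted p = 0.301 by edgeR and 1.93e-07 by DESeq2). In CRYM the pregnant cows were all below the non-pregnant cows in CON and all above them in ECP. In ECP they stood at 30.8, 37.6 and 45.3 against 30.3, 29.0 and 11.6 normalized counts. The gaps were very narrow, with E0819 at 57.5 and B1042 at 57.8 in CON, and D160 at 30.8 and B0646 at 30.3 in ECP. The difference between the treatments in CRYM was -1.45 (standard error 0.54, adjusted p = 0.898 by edgeR and 0.561 by DESeq2). With all 12 cows edgeR called neither difference, whereas DESeq2 called that of ENSBTAG00000023600, as did edgeR without E0040 (adjusted p = 0.0636) and without E0819 (adjusted p = 0.0446). Both genes were named for their difference in CON, which is itself a part of the difference between the treatments. Of the 14951 genes tested in both treatments, the groups were apart in CON for 1166 and in ECP for 1440. They were apart in both treatments in the same direction for 29 genes and in opposite directions for 83. With no difference, groups of 3 against 3 cows are apart with a probability of 0.1 in either treatment. Some genes are thus apart in both without a difference, and genes are not independent. These counts alone are therefore no sign of a difference.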

How the results depend on the processing

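The count of 0 genes called for pregnancy in CON held under every alternative in edgeR with all 6 cows and under limma voom, and became 37 with DESeq2, with or without its own filtering. With each cow left out it ranged from 0 to 2, with 2 without E0819 (ENSBTAG00000010151 and ENSBTAG00000011824, adjusted p = 0.0372 each), and the number of genes with an unadjusted p under 0.05 ranged from 335 to 1196. The number of genes without overlap ranged from 2034 to 3692, since fewer cows leave fewer ways to overlap. The share of variance between outcomes ranged from 20.2% to 26.7%, and such a share rises with fewer cows even without a difference. The P4 difference ranged from 0.01 to 0.495 ng/mL. The interaction count of 0 became 15 with DESeq2, and 0 to 1 with each cow left out. Of alternatives chosen after seeing the data, the 37 DESeq2 calls became 34 with mapping class and 14 in the 12-cow fit (10 of them among the 37). They became 19 with a filter that also asks for a mean above the standard deviation, and 16 to 229 with each cow left out. The study used such a filter on its own set of samples, whereas here it was applied to the 6 CON cows. The cause was not tested.

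The 4 gene IDs of lowest p kept their direction under each alternative that gave them a value, but ENSBTAG00000031265 was removed by the study's filter, since its mean did not exceed its standard deviation. Fold changes near 0 turned sign in 11 cases with all cows. Under upper quartile scaling PEPD was at -0.0023, RPS2 at -0.011, GABARAP at -0.019, ASPN at -0.010 and ENSBTAG00000021466 at -0.023. Under limma voom ASPN was at -0.016 and ENSBTAG00000021466 at -0.019. With progesterone as a term STRAP was at -0.013, GABARAP at -0.021 and ST8SIA4 at 0.0020, and with mapping class GABARAP was at -0.0030. With each cow left out 13 genes turned sign, with ranges from -0.27 to 0.021 for ARHGEF12, -0.18 to 0.20 for ASPN, -0.41 to 0.54 for CXCL14, -0.13 to 0.16 for ENSBTAG00000021466, -0.040 to 0.066 for GABARAP, -0.056 to 0.47 for MGAT5, -0.048 to 0.10 for PEPD, -0.0045 to 0.16 for RBM48, -0.0010 to 0.037 for RPS2, -0.16 to 0.081 for S100G, -0.15 to 0.059 for SBNO1, -0.23 to 0.036 for ST8SIA4 and -0.012 to 0.067 for STRAP. No paired analysis was made because the groups hold different cows and the labels give no pairing of them. With 3 cows an outcome, variation between cows limits the comparison, and the standard error was largest for genes of low counts.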
